A study of Mus musculus with 8 samples.

Results

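The mitosis genes are 38 genes that a cell needs to enter mitosis, build the spindle, attach and separate its chromosomes and divide. They were taken as a list of gene names, and the probe with the brightest mean stood for each gene. All 38 were on the array, with 57 probes, and 33 of them were among the 25127 genes and unnamed transcripts tested. The list was drawn up by function, with earlier results of these data known.

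Total RNA of whole kidneys from CD-1 mice, an outbred stock, was measured on 8 1-colour Agilent arrays. The mice of 1 group received tacrolimus, a calcineurin inhibitor given to transplant patients against rejection, at 1 mg/kg/day for 28 days, and those of the other received physiological serum. Each group had 4 arrays, numbered as replicates in labels that give no animal, age or sex, so that each p-value reflects variation among these samples only, which may be technical. A kidney sample is a mixture of cell types, so that a change in the number of cells of a type and a change in RNA per cell cannot be told apart.

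Mitosis is driven by cyclin-dependent kinase 1 bound to cyclins A and B. Aurora and Polo kinases then organise the centrosomes and the spindle, the checkpoint delays anaphase until every kinetochore is attached, and the anaphase-promoting complex marks cyclin B and securin for destruction. Most of these genes are transcribed late in the cell cycle, and most cells of an adult kidney are not dividing.

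Values are log2 processed intensities from which the 75th percentile of that array was subtracted, so that 0 is the level of that percentile. Levels of different probes are not set against each other. Each array had 64.0% to 69.8% of its spots well above background, and no spot was saturated. All 8 arrays lay on 1 slide, with the tacrolimus arrays in row 2 and the control arrays in row 1, so that row and treatment cannot be told apart. In the median spot, local background measured 19 to 20.5 units of intensity for tacrolimus arrays and 22 for each control array. A gene was tested if its probe passed the scanner's test for signal above background on 4 or more of the 8 arrays, a state called well above background in what follows, and called at a limma adjusted p under 0.05.

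Mitosis genes were higher in kidneys of tacrolimus-treated mice than in control kidneys, by a median of 1.04 log2 units over the 33 tested, against -0.05 over all genes tested. A positive difference was found for 32 of the 33, against 39.5% of all genes tested. In 26 of the 33 the 4 tacrolimus arrays all lay above the 4 control arrays, as in 4.35% of all genes, and in none did they all lie below, as in 5.75% of all genes. With limma, 29 of the 33 were higher at an unadjusted p under 0.05 and none was lower, where 7.04% of all genes were higher and 8.42% lower. Top2a, Bub1, Bub1b, Melk, Kif11, Kif4, Ndc80 and Nuf2 passed the filter with all 4 tacrolimus arrays but fewer control arrays. With the filter on all 8 arrays these were not tested. Then 21 members were higher at a limma unadjusted p under 0.05 and 19 did not overlap, with shares over all genes not given here. Only Cdca3 and Birc5 passed the adjusted threshold, 2 of 33, where 0.187% of all genes were called higher and 0.0398% lower. Differences ran from -0.13 in Cenpe to 1.68 in Nuf2, whose probe was well above background on 1 of 4 control arrays, so that the upper end is not measured exactly. With normexp background correction in place of the scanner's own, before the 75th percentile, the median was 0.65 and 15 members were called with limma, while every one of the 33 kept the sign of its difference.

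**Figure D1:**
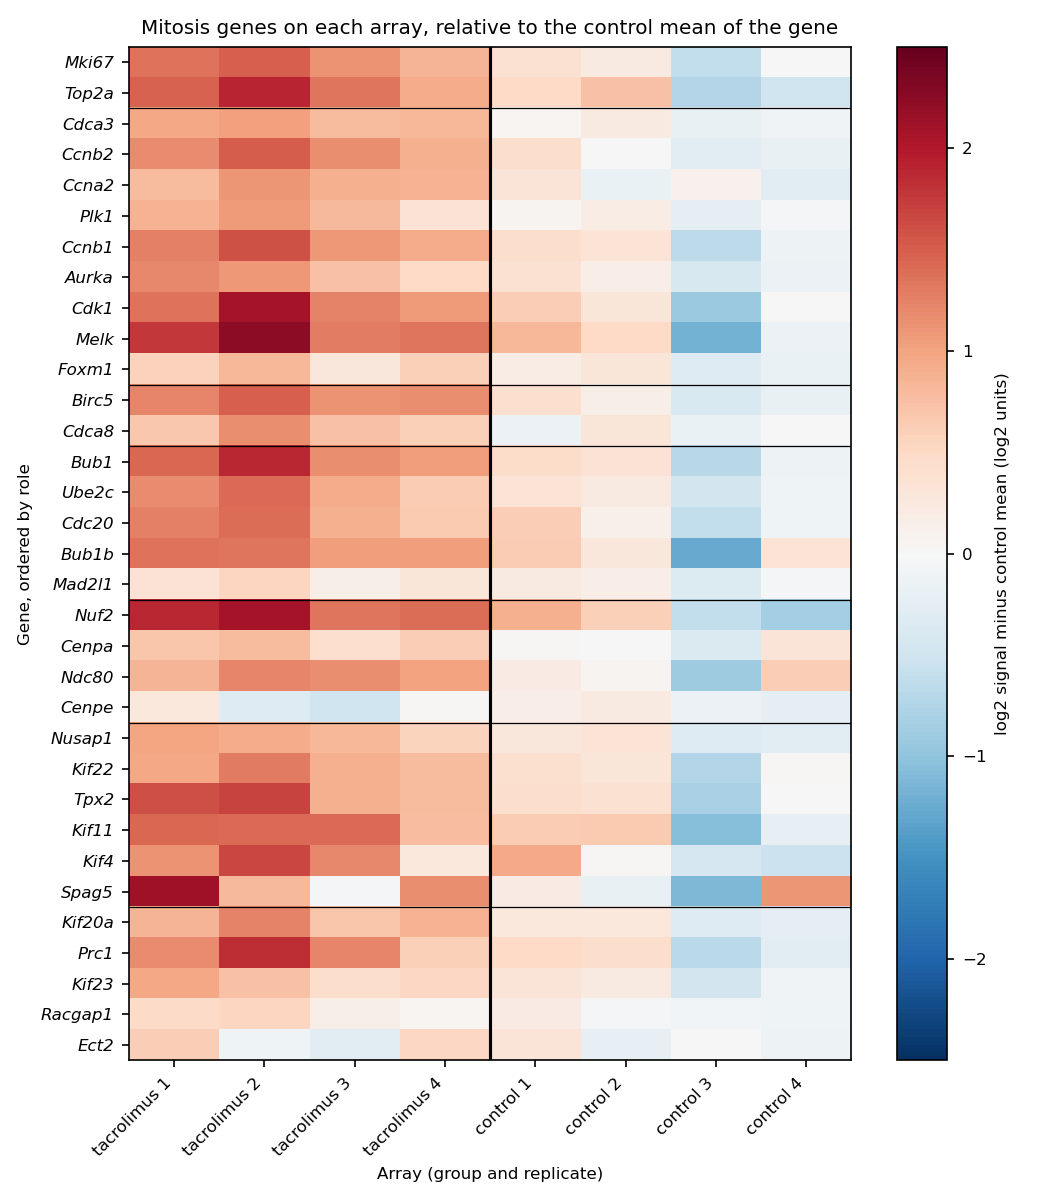
Each row is 1 of the 33 mitosis genes tested, ordered by role with lines between roles, and each column is 1 array, 4 tacrolimus to the left of 4 control. Colour is the log2 signal minus the control mean of the gene: the tacrolimus columns are above the control mean for nearly every gene, tacrolimus replicate 2 is most often the highest and control replicate 3 is most often the lowest.

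Cdca3, an F-box protein that triggers mitotic entry, measured -1.02, -0.97, -1.20 and -1.16 on the tacrolimus arrays and -1.95, -1.78, -2.18 and -2.08 on the control arrays. The groups did not overlap, with a gap of 0.58 log2 units between the lowest tacrolimus and the highest control array. Cdca3 rose by 0.91 ± 0.11 log2 units (SE, n = 4 each), or 1.88-fold, at a limma adjusted p of 0.0302. Its probe lies at chr6:124783233-124783292 on mm9. Without any single array the difference stayed between 0.85 and 0.98, but the limma adjusted p was between 0.0504 and 0.0992, so that the call rests on all 8 arrays.

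Birc5 encodes survivin, a subunit of the chromosomal passenger complex. It measured 0.46, 0.73, 0.35 and 0.40 on the tacrolimus arrays and -0.33, -0.61, -1.14 and -0.95 on the control arrays. The groups did not overlap, and control replicates 3 and 4 were the lowest. Birc5 rose by 1.25 ± 0.18 log2 units (SE, n = 4 each), or 2.37-fold, at a limma adjusted p of 0.0483. Leaving out control replicate 1 kept the call, while leaving out any of the other 7 arrays ended it, with a highest limma adjusted p of 0.116.

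Birc5 has further probes on the array, which match different transcript variants and are printed here because they carry the same difference in other parts of the gene. The first, annotated to variant 1, lies at chr11:117711112-117711171 on mm9, and the second, annotated to variant 3, at chr11:117714057-117714116. Both are given in lower case.
Birc5 variant 1 probe: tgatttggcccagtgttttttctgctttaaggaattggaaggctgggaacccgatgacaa
Birc5 variant 3 probe: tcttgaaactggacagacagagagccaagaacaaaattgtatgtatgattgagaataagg
The variant 1 probe averaged -2.85 ± 0.22 in tacrolimus and -4.27 ± 0.59 in control kidneys (SD, n = 4 each), a difference of 1.42. For the variant 3 probe the means were -3.78 ± 0.16 in tacrolimus and -5.14 ± 0.51 in control kidneys (SD, n = 4 each), a difference of 1.36. All 3 probes thus differed in the same direction, and none has tacrolimus and control arrays that overlap.

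Ccnb2 and Ccna2 came next by p, just outside the threshold at a limma adjusted p of 0.0552 each, followed by Mki67 at 0.0715 and Kif20a at 0.0728. The plot of 8 genes shows the called pair, a cyclin, the proliferation marker and the kinase that drives entry, and 3 members with overlapping arrays that were chosen after their values were seen.

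**Figure D2:**
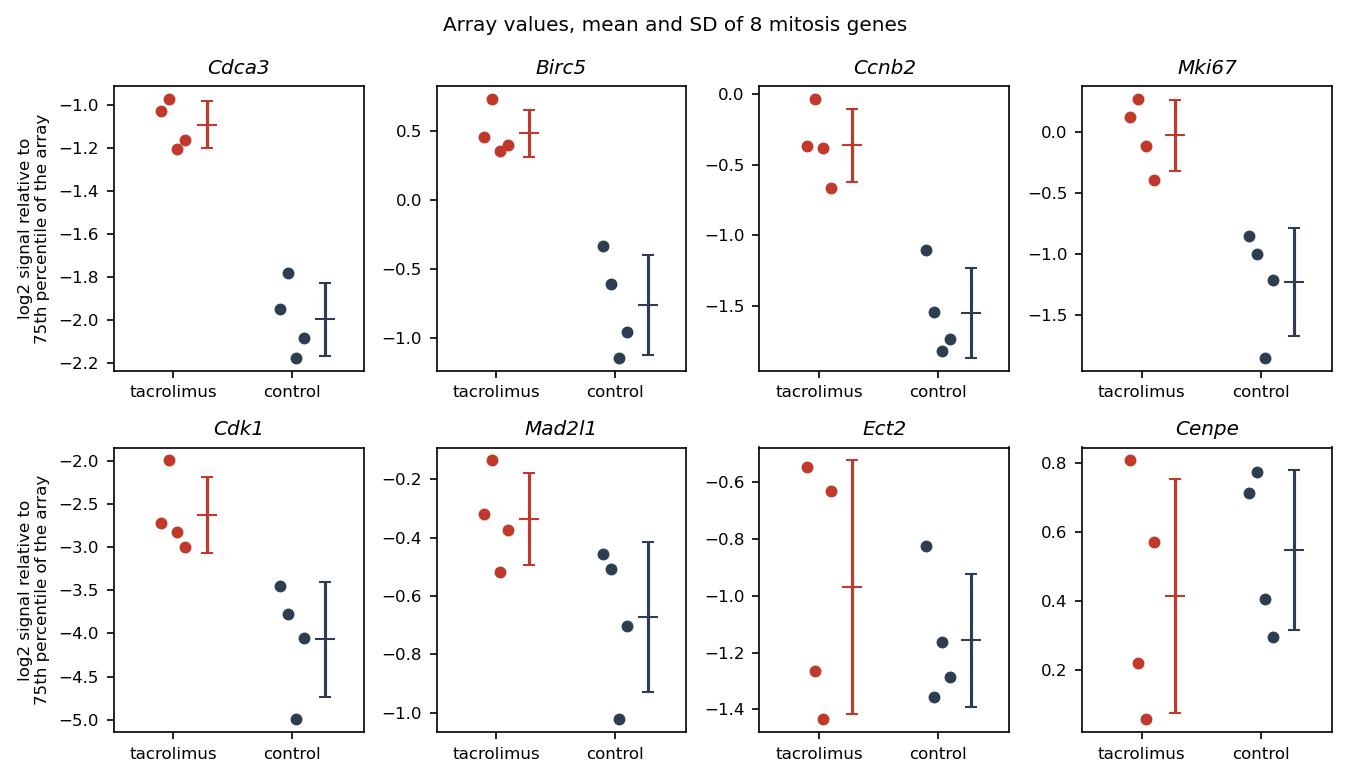
Each panel shows 1 gene, with 1 point per array, a horizontal mean and a bar of 1 SD (n = 4 per group), tacrolimus left of control, and the y axis in log2 signal relative to the 75th percentile of the array, on a scale of its own that does not start at 0. In Cdca3, Birc5, Ccnb2, Mki67 and Cdk1 the groups are apart, and in Mad2l1, Ect2 and Cenpe they overlap.

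The start regions of the mitosis genes share letters that the list was not chosen by. CCAAT is the motif bound by NF-Y, and TTTGAA is the core of the cell cycle gene homology region, the motif bound by MuvB complexes at many late cell cycle genes. Both were searched on both strands in RefSeq windows of GRCm38.p6 that run from 250 bases before to 50 bases after a transcription start, of which 34 belonged to 32 members. CCAAT was in 27 of the 34, or 79.4%, against 37.4% of all 32851 windows. At least 2 copies of CCAAT were in 55.9%, against 11.7% of all windows. TTTGAA was in 26, or 76.5%, against 17.9% of all windows. Both motifs were in 24, or 70.6%, against 6.95% of all windows. TTTAAA, a variant of the second motif added after the windows had been seen, was in 26.5%, against 13.2%. In the windows of DNA replication and S phase genes CCAAT was in 61.1%, and at least 2 copies of it in 33.3%, both also above all windows. There TTTGAA was in 11.1% and both motifs were in 8.33%. In the windows of further mitosis genes CCAAT was in 69.7%, at least 2 copies of it in 37.9%, TTTGAA in 53.0% and both motifs in 37.9%. A match describes these letters and is not a binding site, and a missing match says only that they are not in the window.

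Windows of the called genes and of the cyclin B paralogs are printed, from 150 bases before to 30 after the start, to show how far members that were all higher differ in these motifs. Capitals mark every copy of the motifs on either strand, so that a copy of CCAAT on the opposite strand reads ATTGG. Cdca3 is on the plus strand at chr6:124830026-124830205, Birc5 on the plus strand at chr11:117849087-117849266, Ccnb2 on the minus strand at chr9:70421525-70421704 and Ccnb1 on the minus strand at chr13:100786457-100786636, all of GRCm38.p6 and written 5′ to 3′ along the gene.
Cdca3: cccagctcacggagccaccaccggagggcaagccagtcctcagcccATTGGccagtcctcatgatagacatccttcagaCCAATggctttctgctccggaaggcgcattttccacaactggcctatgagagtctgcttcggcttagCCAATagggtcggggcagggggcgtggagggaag
Birc5: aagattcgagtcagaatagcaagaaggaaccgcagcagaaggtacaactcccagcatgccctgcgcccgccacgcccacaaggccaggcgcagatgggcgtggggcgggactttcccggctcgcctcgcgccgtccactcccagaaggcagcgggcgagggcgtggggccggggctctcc
Ccnb2: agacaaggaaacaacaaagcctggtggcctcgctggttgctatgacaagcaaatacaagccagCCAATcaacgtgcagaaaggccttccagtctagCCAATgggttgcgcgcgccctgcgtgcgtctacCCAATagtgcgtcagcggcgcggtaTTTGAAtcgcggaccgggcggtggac
Ccnb1: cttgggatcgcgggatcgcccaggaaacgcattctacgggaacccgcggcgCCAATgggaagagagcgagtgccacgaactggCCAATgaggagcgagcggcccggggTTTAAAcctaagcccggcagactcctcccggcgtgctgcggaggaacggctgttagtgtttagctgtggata
Cdca3 has 3 copies of CCAAT in the printed stretch, and its TTTGAA begins at base 31 after the start, just outside it. Ccnb2 has 3 copies of CCAAT and 1 TTTGAA, while its paralog Ccnb1 has 2 copies of CCAAT, 1 TTTAAA and no TTTGAA. Birc5 has none of these in the printed stretch, although it was 1 of the 2 genes called. Birc5, Mad2l1, Melk, Nuf2 and Nusap1 had neither CCAAT nor TTTGAA in the longer window, where Birc5 had 1 TTTAAA.

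Mki67 encodes Ki-67, the protein that coats mitotic chromosomes and is the common stain for dividing cells. It measured 0.12, 0.27, -0.12 and -0.39 on the tacrolimus arrays and -0.86, -1.00, -1.86 and -1.22 on the control arrays. The groups did not overlap, and the difference was 1.20 ± 0.23 (SE, n = 4 each) at a limma adjusted p of 0.0715. A further Mki67 probe averaged -0.68 in tacrolimus and -2.12 in control kidneys. Top2a encodes topoisomerase II alpha, which untangles sister chromatids. It measured -3.56, -3.13, -3.71 and -4.12 on the tacrolimus arrays and -4.54, -4.30, -5.77 and -5.53 on the control arrays, with no overlap and a difference of 1.41 ± 0.36 (limma adjusted p = 0.136). Its probe was well above background on 4 of 4 tacrolimus and 3 of 4 control arrays.

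Of the 10 genes for cyclins, Cdk1 and mitotic entry, 9 were tested and 8 of these had groups that did not overlap. Their median difference was 0.91. Ccnb2, cyclin B2, measured -0.37, -0.04, -0.38 and -0.66 on the tacrolimus arrays and -1.11, -1.54, -1.82 and -1.73 on the control arrays. Its difference was 1.19 ± 0.19 (SE, n = 4 each). Ccna2, cyclin A2, measured -1.68, -1.36, -1.58 and -1.60 on the tacrolimus arrays and -2.14, -2.63, -2.36 and -2.72 on the control arrays. Its difference was 0.91 ± 0.14, and the groups of both cyclins lay apart, with replicate 2 the highest tacrolimus array and replicate 1 the highest control array. For Ccnb1, cyclin B1, the difference was 1.22 ± 0.26 at a limma adjusted p of 0.0872, close to that of its paralog. Cdk1 itself differed by 1.44 ± 0.34, or 2.70-fold, at a limma adjusted p of 0.120.

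The entry kinases Plk1 and Aurka, which act at the centrosome and spindle, differed by 0.78 ± 0.16 and 0.88 ± 0.21. Melk, a kinase expressed in dividing cells, differed by 1.66 ± 0.43, with a probe well above background on 3 of 4 control arrays. Foxm1, a transcription factor that activates late cell cycle genes, differed by 0.57 ± 0.17 (limma unadjusted p = 0.0089). Its groups overlapped by 0.01 log2 units, since tacrolimus replicate 3 lay just below control replicate 2. Cdc25c, the phosphatase that activates Cdk1, did not pass the background test on any array.

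The chromosomal passenger complex corrects wrong attachments of chromosomes to the spindle. Beside Birc5 its subunit Cdca8, borealin, measured -0.69, -0.21, -0.62 and -0.77 on the tacrolimus arrays and -1.50, -1.06, -1.52 and -1.36 on the control arrays. These groups did not overlap, and the difference was 0.79 ± 0.16 at a limma adjusted p of 0.0742. Aurkb, the kinase of the complex, was not well above background on any of the 8 arrays, so that this array gives no comparison for it, whereas its paralog Aurka was measured on all 8.

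Spindle checkpoint and anaphase-promoting complex genes had 5 of 6 members tested and a median difference of 1.04. Bub1, a checkpoint kinase at the kinetochore, measured -4.31, -3.87, -4.58 and -4.70 on the tacrolimus arrays and -5.29, -5.38, -6.43 and -5.88 on the control arrays. Its difference was 1.38 ± 0.28 (SE, n = 4 each) at a limma adjusted p of 0.0789, with no overlap and 3 of 4 control arrays well above background. Its paralog Bub1b, BubR1, differed by 1.20 ± 0.37, and control replicate 3 lay at -6.88 where the other 3 control arrays lay between -5.34 and -4.99.

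Ube2c, the ubiquitin-conjugating enzyme of the anaphase-promoting complex, measured -1.94, -1.70, -2.20 and -2.49 on the tacrolimus arrays and -2.78, -2.91, -3.59 and -3.23 on the control arrays. Cdc20, the activator of that complex, measured -0.21, -0.07, -0.57 and -0.81 on the tacrolimus arrays and -0.85, -1.33, -2.08 and -1.58 on the control arrays. Neither gene overlapped, but the gap of Cdc20 was only 0.04, between tacrolimus replicate 4 and control replicate 1. The difference was 1.04 ± 0.22 for Ube2c and 1.04 ± 0.27 for Cdc20. Mad2l1, the checkpoint protein that holds Cdc20, differed by 0.34 ± 0.15, the smallest difference of the role, and its groups overlapped by 0.06. Ttk, the kinase that starts the checkpoint, was well above background on no array.

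The centromere and kinetochore genes had 4 of 5 members tested, 3 of them without overlap, and held the lone negative difference among the 33. Nuf2, a subunit of the Ndc80 complex that binds microtubules, measured -4.59, -4.39, -5.14 and -5.07 on the tacrolimus arrays and -5.59, -5.88, -7.09 and -7.33 on the control arrays. The difference was 1.68 ± 0.40 (SE, n = 4 each) at a limma adjusted p of 0.119, with no overlap. Only 1 of 4 control arrays was well above background, so that the control mean is set mostly by dim spots, and across the alternatives the difference ran from 0.34 to 1.97. A further Nuf2 probe, also well above background on 1 of 4 control arrays, differed by 0.90 with overlapping groups (limma unadjusted p = 0.0792). Ndc80, of the same complex, measured -5.10, -4.72, -4.78 and -4.94 on the tacrolimus arrays and -5.74, -5.88, -6.84 and -5.33 on the control arrays. It differed by 1.06 ± 0.29, with 2 of 4 control arrays well above background.

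Cenpa, the histone H3 variant that marks the centromere, measured -2.17, -2.05, -2.44 and -2.24 on the tacrolimus arrays and -2.83, -2.85, -3.21 and -2.52 on the control arrays. Those groups did not overlap, and the difference was 0.63 ± 0.15. Cenpe, a kinesin that moves chromosomes to the spindle equator, measured 0.81, 0.22, 0.06 and 0.57 on the tacrolimus arrays and 0.71, 0.77, 0.41 and 0.30 on the control arrays. The arrays of the groups were mixed, and the difference of -0.13 ± 0.19 was smaller than the spread between replicates (limma unadjusted p = 0.495). Tacrolimus replicate 2, the highest tacrolimus array in most members, was the third in Cenpe. Cenpf, a kinetochore protein, was well above background on no array.

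Spindle motors and microtubule-associated proteins had a median difference of 1.04, with 6 of 7 members tested and 4 without overlap. Nusap1, which bundles microtubules near chromosomes, measured -2.89, -2.93, -3.03 and -3.31 on the tacrolimus arrays and -3.59, -3.53, -4.19 and -4.15 on the control arrays. Kif22, a chromosome-bound kinesin, measured -0.93, -0.61, -1.01 and -1.10 on the tacrolimus arrays and -1.50, -1.59, -2.63 and -1.88 on the control arrays. Both had groups apart, and their differences were 0.83 ± 0.18 and 0.98 ± 0.24. Tpx2, the activator of Aurka on the spindle, measured -2.55, -2.48, -3.28 and -3.37 on the tacrolimus arrays and -3.73, -3.78, -4.97 and -4.17 on the control arrays, again with no overlap and with a difference of 1.24 ± 0.32.

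Kif11, the motor that pushes the spindle poles apart, measured -4.96, -4.98, -4.97 and -5.63 on the tacrolimus arrays and -5.76, -5.75, -7.46 and -6.59 on the control arrays. Its groups did not overlap, 2 of 4 control arrays were well above background and the difference was 1.26 ± 0.38. Kif4, a chromosome-bound kinesin, differed by 1.07 ± 0.38, but its groups overlapped and only 1 of 4 control arrays was well above background. Spag5, astrin, had the widest overlap of any tested member, 1.15 log2 units, and its difference was 1.01 ± 0.55 (SE, limma unadjusted p = 0.101). Kif2c, a microtubule-depolymerising kinesin, was well above background on 2 tacrolimus arrays and on none of the control arrays. It was not tested and averaged -5.97 in tacrolimus and -7.34 in control kidneys. Raising the control arrays to the lowest signal that counts as above background left it 1.11-fold higher in tacrolimus kidneys. That is not a lower bound, since the remaining tacrolimus arrays were dim as well.

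The genes of the central spindle and cytokinesis had the lowest median difference of the roles, 0.66 over 5 tested members. Kif20a, a kinesin needed for cytokinesis, measured -1.82, -1.43, -1.99 and -1.81 on the tacrolimus arrays and -2.41, -2.41, -2.99 and -2.89 on the control arrays, with no overlap and a difference of 0.91 ± 0.18. Prc1, which cross-links the microtubules of the central spindle, measured -1.96, -1.31, -1.92 and -2.56 on the tacrolimus arrays and -2.66, -2.72, -3.82 and -3.42 on the control arrays. Its difference was 1.21 ± 0.33, and tacrolimus replicate 4 came within 0.10 of the highest control array.

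Kif23, the motor subunit of centralspindlin, measured -2.33, -2.56, -2.86 and -2.78 on the tacrolimus arrays and -2.98, -3.06, -3.75 and -3.39 on the control arrays, a difference of 0.66 ± 0.19 without overlap. Its partner Racgap1 differed by only 0.30 ± 0.14 (limma unadjusted p = 0.0603). Ect2, the exchange factor that Racgap1 recruits to start furrow contraction, differed by 0.19 ± 0.22 (limma unadjusted p = 0.427). The arrays of both Racgap1 and Ect2 overlapped. Of the 5 genes of this role, then, the kinesins Kif20a and Kif23 and the cross-linker Prc1 had separate groups, while Racgap1 and Ect2 had not.

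**Figure D3:**
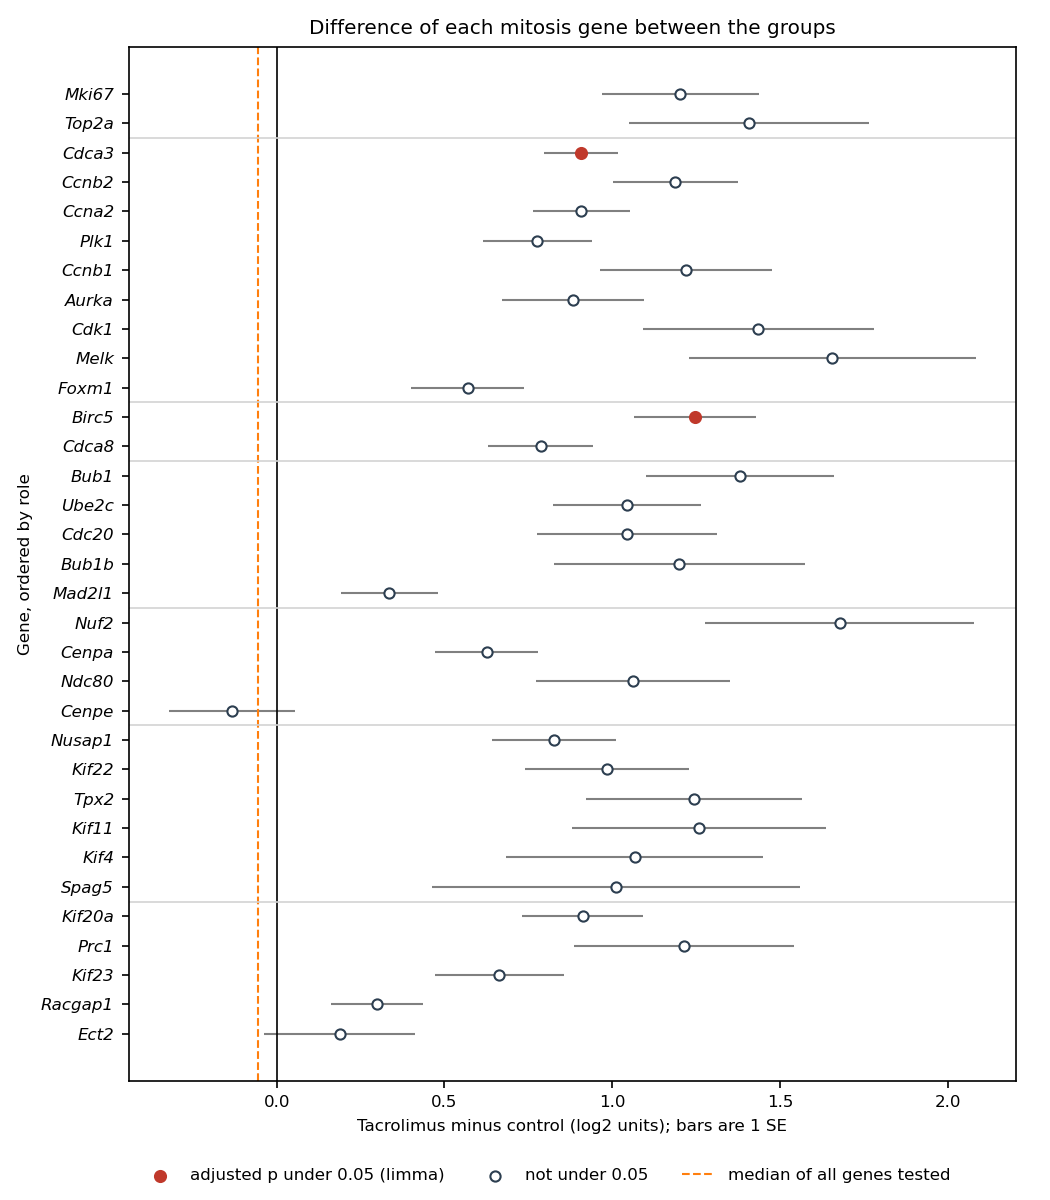
Each row is 1 tested mitosis gene, ordered by role, with its tacrolimus minus control difference in log2 units on the x axis and a bar of 1 SE (n = 4 per group). Filled points mark Cdca3 and Birc5, the 2 genes with a limma adjusted p under 0.05, the dashed line at -0.05 is the median of all 25127 genes tested, and Cenpe at -0.13 is the only point left of 0.

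Further probes of 14 members gave 19 more measurements. In 8 of them the probe was well above background on all 8 arrays, and all 8 were higher in tacrolimus kidneys, 6 at a limma unadjusted p under 0.05. The other 11 were dim on at least 1 array: 5 were well above background on tacrolimus arrays alone, 1 on a control array alone, 3 on none, and 2 on some arrays of each group. The lone probe seen on a control array belonged to Kif23 and had a difference of -1.32 on dim spots, against 0.66 in the brightest probe of that gene. Racgap1 and Mad2l1 had small differences in their further probes as well, with 0.29 for Racgap1 and 0.48 and 0.14 for Mad2l1.

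The members moved with the arrays as well as with the groups. Tacrolimus replicate 2 was the highest tacrolimus array in 25 of 33 members and replicate 1 in the other 8, while replicate 4 was the lowest in 19 and replicate 3 in 12. Among the controls, replicate 3 was the lowest in 27 of 33 and replicate 1 the highest in 21. The mean of the 33 members relative to their control means, used as a score per array, was 1.10, 1.24, 0.81 and 0.74 on the tacrolimus arrays and 0.38, 0.23, -0.53 and -0.08 on the control arrays. The lowest tacrolimus array thus lay 0.36 above the highest control array. The median SD of the members was 0.290 over tacrolimus arrays and 0.363 over control arrays, against 0.205 and 0.166 over all genes tested. The control SD was the larger in 28 of the 33 members, or 84.8%, against 39.5% of all genes.

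Other genes of the cell cycle were followed in 5 lists outside the 38. Over all genes tested, 7.04% were higher and 8.42% lower at a limma unadjusted p under 0.05. Of 73 further mitosis genes, 62 were tested and 3 rose, 37 were higher and 1 lower at a limma unadjusted p under 0.05, and the median difference was 0.51, or 0.29 with normexp and the 75th percentile. The 3 were Sgo1, shugoshin, which protects centromeric cohesion (1.13 ± 0.15, limma adjusted p = 0.0388), Iqgap3, a scaffold protein (1.88 ± 0.25, limma adjusted p = 0.0404), and Ska1, which couples kinetochores to microtubules (0.99 ± 0.14, limma adjusted p = 0.0442). Iqgap3 was well above background on 1 of 4 control arrays. When each of the 8 arrays was left out in turn, the limma call held in 2 runs for Sgo1, 2 for Iqgap3 and 1 for Ska1. Trip13, which turns over checkpoint complexes, came next with 1.11 ± 0.17 at a limma adjusted p of 0.0552.

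Of 38 genes of DNA replication and S phase, 37 were tested, none was called, 19 were higher and none lower at a limma unadjusted p under 0.05, and the median difference was 0.32. The lowest p were those of Dtl, a substrate receptor for replication-coupled ubiquitination (2.30 ± 0.38, with 1 of 4 control arrays well above background), and Gins2, a helicase subunit (0.88 ± 0.14), at a limma adjusted p of 0.0552 each. Chaf1b, of chromatin assembly factor 1, differed by 0.75 ± 0.16, and Uhrf1, which maintains DNA methylation, by 1.34 ± 0.29.

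The other 3 lists had medians near 0. Their counts at a limma unadjusted p under 0.05 stand beside 7.04% higher and 8.42% lower over all genes tested. Of 15 subunits of the anaphase-promoting complex, all tested, none was called and 2, Cdc27 and Anapc16, were lower at a limma unadjusted p under 0.05, by -0.23 ± 0.08 and -0.20 ± 0.07. Their median difference was -0.10, and between -0.15 and -0.03 across the alternatives, while Ube2c and Cdc20, which work with that complex, both differed by 1.04. Among 19 tested genes for G1 cyclins, CDKs and CDK inhibitors the median was 0.06, and between 0.01 and 0.19 across the alternatives, the highest without tacrolimus replicate 1, with 2 higher (Pkmyt1, 0.96 ± 0.17, and Ccne1, 0.79 ± 0.16) and 2 lower (Cdc25a, -0.36 ± 0.12, and Ccnh, -0.31 ± 0.13) at a limma unadjusted p under 0.05. Among 19 tested MuvB, Myb and E2F regulators the median was -0.04, with 1 higher and 4 lower at that threshold, among them E2f8, a repressor expressed in S phase, at 1.33 ± 0.30, and E2f5 at -0.31 ± 0.09.

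**Figure D4:**
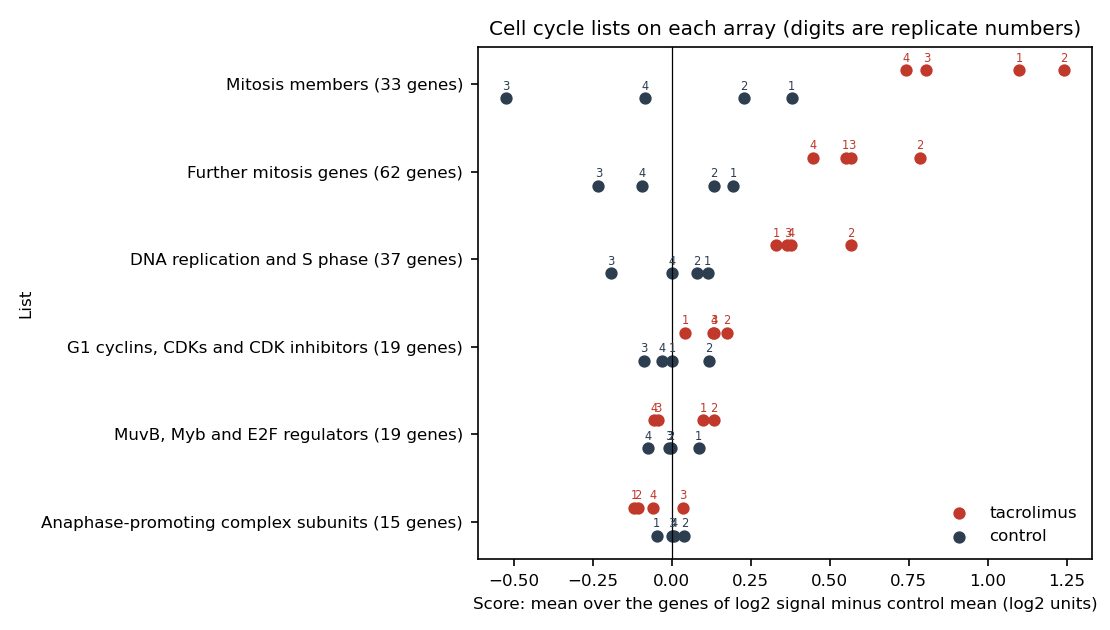
Each row is a list of cell cycle genes and each point 1 array, labelled by its replicate number, with tacrolimus arrays above control arrays; the x axis is the mean over the tested genes of the list of log2 signal minus the control mean. The 33 mitosis genes range from 0.74 to 1.24 on tacrolimus arrays and from -0.53 to 0.38 on control arrays, further mitosis genes from 0.45 to 0.79 and from -0.23 to 0.19, and the anaphase-promoting complex subunits overlap around 0.

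Markers of several cell types moved with the mitosis genes. The mean over 9 macrophage and dendritic cell markers of log2 signal minus the control mean ranged from 0.56 to 1.25 on tacrolimus arrays and from -0.36 to 0.45 on control arrays. At a limma unadjusted p under 0.05, 7 of the 9 were higher and 1, Flt3 at -0.94, was lower, where 7.04% of all genes were higher and 8.42% lower. Differences were 1.40 for Adgre1, 0.06 for Csf1r and 0.83 for Cd68. The 6 fibroblast and pericyte markers ranged from 0.48 to 1.14 on tacrolimus arrays and from -0.14 to 0.12 on control arrays, with 5 of 6 higher at that threshold. Col1a2, a collagen I chain, rose by 1.14 ± 0.16 (limma adjusted p = 0.0462), while Pdgfra differed by 0.92 and Pdgfrb by 0.36.

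The 6 markers of injured tubule ranged from 1.58 to 2.63 on tacrolimus arrays and from -0.32 to 0.32 on control arrays. At a limma unadjusted p under 0.05, 5 of 6 were higher, where 7.04% of all genes were higher and 8.42% lower. Krt20, a keratin, rose by 4.98 ± 0.58 (limma adjusted p = 0.0266) and Vcam1, an adhesion molecule, by 2.39 ± 0.31 (limma adjusted p = 0.0391). The Krt20 probe was well above background on 3 of 4 control arrays, and its difference ran from 3.04 to 5.45 across the alternatives. With each of the 8 arrays left out in turn, the limma call held in 3 runs for Krt20, 2 for Vcam1 and 1 for Col1a2. Havcr1, which encodes KIM-1, had a difference of -0.25 at a limma unadjusted p of 0.248. The 8 T and NK cell markers overlapped between the groups, at 0.11 to 0.71 on tacrolimus arrays and -0.27 to 0.48 on control arrays. Their median difference was 0.74, with 3 of 8 higher and 0 lower at a limma unadjusted p under 0.05. B cell markers overlapped as well, at -0.42 to 0.38 and -0.48 to 0.21, with a median difference of -0.06 and 0 of 6 higher or lower at that threshold. Proximal tubule markers lay at -0.28 to 0.04 on tacrolimus arrays and -0.04 to 0.10 on control arrays, with all 6 markers of this main cell type of the kidney tested.

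Adipocyte markers, averaged in the same way, stood at 3.47, 2.53, 2.71 and 6.22 on the tacrolimus arrays and -0.51, 2.61, -0.99 and -1.11 on the control arrays. Tacrolimus replicate 4, the lowest tacrolimus array in mitosis genes, was the highest in adipocyte markers, and also in urothelium markers, at 3.78. Without that array and control replicate 2, 0 members were called with limma, and the median difference was 1.15. Groups did not overlap in 28 of 33, a count that leaving out arrays can only keep or raise. Within the tacrolimus group, replicate 2 was highest in mitosis, macrophage, fibroblast and injured tubule genes alike, and within the control group replicate 3 was lowest in all 4 lists. This order was not particular to these lists. Control replicate 3 was also lowest in T and NK cell, B cell and urothelium markers, and tacrolimus replicate 2 was also highest in podocyte and endothelium markers. The part of these cell types in the differences of the mitosis genes was not tested.

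**Figure D5:**
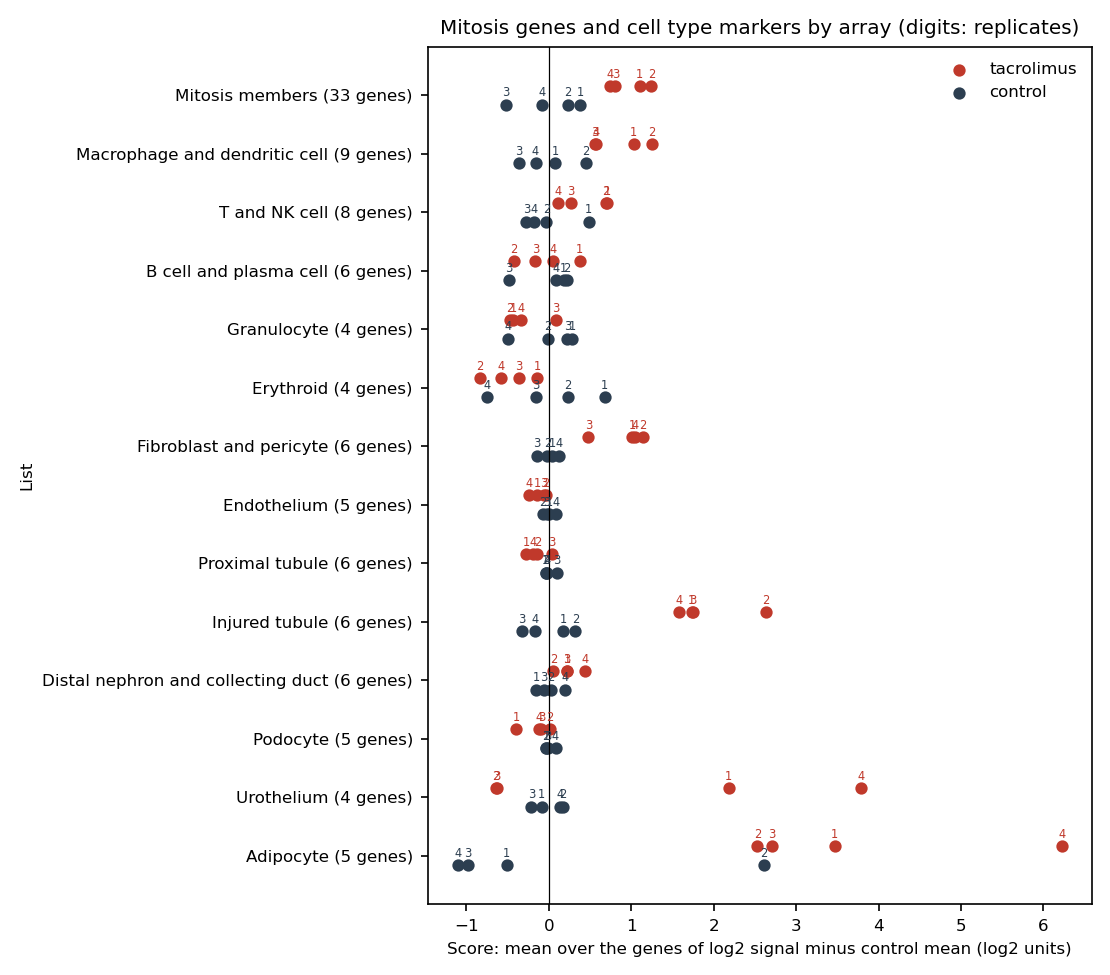
Each row is the mitosis genes or a list of cell type markers and each point 1 array, labelled by its replicate number, with tacrolimus arrays above control arrays; the x axis is the mean over the tested genes of log2 signal minus the control mean. Mitosis, macrophage, fibroblast and injured tubule genes are higher on every tacrolimus array than on any control array, T and NK cell markers overlap, and adipocyte markers reach 6.22 on tacrolimus replicate 4 and 2.61 on control replicate 2.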

How the data were processed

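Kidney RNA of 4 tacrolimus-treated and 4 control CD-1 mouse samples (0.2 ug of RNA with an integrity number of 9 in each, per the labels) was labelled with Cy3. The deposited scanner files hold intensities of 1 array each from the scanner software (per the file headers, version 10.7.3.1 of Feature Extraction), with the background already subtracted in the processed intensity and nothing normalized between arrays. The authors' deposited value table holds log2 values, equal within 5e-09 to the log2 of quantile-normalized raw median intensities with no background subtracted or centring. Per the submitters' processing notes limma was used, with settings not given here.

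Reported values are log2 processed intensities minus the 75th percentile of the array. Control features (3671) and outlier spots (147 to 194 per array) were left out and spots of a probe averaged. Of 55681 probes, 36493 were well above background, on at least a share of 0.5 of their spots, on at least 4 of 8 arrays. The brightest probe stood for each gene. Names came from RefSeq (GRCm38.p6) for 28026 probes and otherwise from the files, and probe positions are the array's, on mm9.

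The comparison used lmFit and eBayes of limma 3.58.1 under R 4.3.3 (two-sided, Benjamini-Hochberg over all 25127), tested on simulated data. The precision is limited by 4 arrays per group. Members and lists were chosen with earlier results of these data known. Array values are given for called members, the 3 lowest p of each role, and members lower under tacrolimus; in other lists up to 4 of lowest p, called genes and the first 3 markers are named, and other members were described after their values were seen. For Kif2c the dim control group was set to the higher of its own signal and the lowest signal above background of each array. Alternatives were other normalizations, normexp (offset 50), the deposited table, other filters, the mean of probes, trend and robust estimation, array weights, a replicate block, each array left out, and, added after seeing the data, the pair of arrays high in adipocyte markers left out.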

Additional observations from a re-analysis of the deposited data

Results flagged for a closer look

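Kif11 stood out on 1 array: among its 4 tacrolimus values, replicate 4 at -5.63 lay apart from the other 3, with a gap of 0.968 of the whole range, by which the critical value of Dixon's test for 4 samples was passed. It was the only 1 of 66 groups examined over the tested members, where chance marks about 1 in 20.

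Some further probes, not used in the comparisons, were well above background on tacrolimus arrays and on no control array. For Ccnb1 these were A_55_P1952256, on 2 tacrolimus arrays, and A_55_P2128668, on 3. For Cdk1 they were A_55_P2016647, on 1 tacrolimus array, and A_55_P2016652, on 2. For Kif2c it was A_66_P125209, on 1 tacrolimus array.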

How the results depend on the processing

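No tested member changed sign under any alternative. The count of members higher at a limma unadjusted p under 0.05, 29, and the count without overlap, 26, stayed within 1.5 times these values under every alternative run. They were lowest with the filter on all 8 arrays, at 21 and 19, where members dim on some control arrays were not tested. These 2 counts are thus out of fewer members than 29 and 26, and their drop is not a loss among the members still tested. Leaving out 1 array gave 27 to 30 and 26 to 28, but leaving out an array can only keep or raise the count without overlap. This holds for all genes too, so that the share over all genes on 8 arrays does not apply to 26 to 28. The count of called members, 2, did not hold. It was 1 with quantile normalization, with the array median, without the filter on dim probes, with the mean of probes and with the replicate block. It was 4 with normexp and quantile normalization and with the filter on all 8 arrays, 5 with the deposited table and with an intensity trend and robust estimation together, 7 with array weights and 15 with normexp and the 75th percentile. Leaving out 1 array gave 0 to 3, and leaving out tacrolimus replicate 4 with control replicate 2 gave 0. The median difference of the members, 1.04, was 0.65 with normexp and the 75th percentile and 0.63 with normexp and quantile normalization. It was 0.72 with the deposited table, 0.91 with the filter on all 8 arrays, and 0.84 to 1.13 without 1 array. Both normexp and the deposited table compress differences of dim probes by construction, through the added offset or the background left in. The count over all genes, 57, was 285 with normexp and the 75th percentile, 127 with normexp and quantile normalization, 180 with the deposited table, 32 without the filter, 151 with the filter on all 8 arrays, 221 with an intensity trend and robust estimation together, 309 with array weights, 103 with the replicate block, 8 without tacrolimus replicate 4 and control replicate 2, and 7 to 56 without 1 array, lowest without control replicate 2. The median of the MuvB, Myb and E2F list, -0.04, was 0.077 with the mean of probes, -0.073 to 0.011 without 1 array, the highest without tacrolimus replicate 3, and 0.0017 without tacrolimus replicate 4 and control replicate 2. That of the further mitosis genes, 0.51, was 0.29 with either form of normexp and 0.32 with the deposited table. That of the G1 list, 0.06, was 0.007 with the array median, 0.187 when tacrolimus replicate 1 was left out, 0.104 for tacrolimus replicate 2 and 0.089 for control replicate 3. That of the anaphase-promoting complex subunits, -0.10, was -0.15 with the array median, -0.03 with quantile normalization and with the mean of probes, and -0.065 to -0.052 when tacrolimus replicate 2 or 4 or control replicate 2, 3 or 4 was left out. The array median moved the median of all genes to -0.11. Without 1 array, Sgo1, Iqgap3, Krt20, Vcam1, Ska1 and Col1a2 kept a call in 2, 2, 3, 2, 1 and 1 of 8 runs, all with the same sign. Same-numbered arrays of the groups had deviations correlated at 0.156, 0.021, 0.143 and 0.055. For tacrolimus replicates 1, 3 and 4 the same-numbered control array correlated best, while tacrolimus replicate 2 correlated best with control replicate 1 (0.055). These values do not settle whether the numbers pair the samples, and the main comparison used no pairing. Causes of these shifts were otherwise not tested. Dim members are limited by signal over background: Nuf2, Kif4, Kif11 and Ndc80 were well above background on 2 or fewer control arrays.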
